A study of Drosophila melanogaster with 10 samples.

Results

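The genes described here are the expressed noncoding genes that carry only a CR number in the annotation of Drosophila melanogaster, in embryos that overexpressed forms of the cell cycle inhibitor dacapo. A gene entered the set when its name in the deposited table was CR followed by digits and its RPKM (reads per kilobase of a transcript, scaled per megaread that mapped) averaged at least 5 over the 10 libraries. This held for 86 of the 15422 genes in the table and for 86 of its 586 CR genes. The members were thus selected on their mean measured level over all libraries, those of the dacapo forms included. In 7 members the control mean was under 5 RPKM, so these passed only through dacapo libraries. For them the rule favours a level above control. Of these 7, 2 were called, CR43635 and CR43859, both higher. The members just inside the limit were CR43642 with a mean of 5.30 RPKM and CR42839 with 5.41 RPKM, and just outside stood CR43148 with 4.88 RPKM and CR43242 with 4.85 RPKM.

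The study measured polyA RNA of whole embryos at stages 15 to 16, grown at 25 °C, with 2 independent libraries for each of 5 genotypes. All embryos carried the pros-Gal4 driver, which is active where prospero is expressed, chiefly in cells of the developing nervous system. In dap embryos it drove UAS-dap, the wild-type gene. In dapCRL4, dapPCNA and dapCDI embryos it drove UAS-dapCRL4, UAS-dapPCNA and UAS-dapCDI, each of which encodes a stabilized Dacapo protein. Control embryos were pros-Gal4/+ and had no UAS transgene, so the presence of a transgene and the genetic background cannot be told apart from the form of dacapo. The Dacapo protein blocks Cyclin E/Cdk2, as its p21 and p27 relatives do in mammals.

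Long noncoding RNAs are transcripts without a long conserved reading frame. Some lie between coding genes, some run antisense to one and may share its exons, and some are precursors from which a microRNA or a small nucleolar RNA is cut. For a few a role in the embryo is known, such as roX1 and roX2 in dosage compensation of the male X chromosome or cherub in neuroblasts, while for most CR genes no function has been assigned. PolyA selection keeps only those noncoding RNAs that carry a tail.

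Counted reads were estimated from the values of genes with few reads at 20.8 and 20.9 megareads for dap, 19.9 and 22.5 for dapCRL4, 21.4 and 17.7 for dapPCNA, 17.1 and 19.9 for dapCDI, against 25.8 and 25.3 megareads for control. Libraries are named here by genotype and replicate number, such as dap 2. The lowest estimate for a member was 27 reads, leaving out CR44137, which was listed at 0 in 2 libraries, and 21 members had fewer than 100 estimated reads in some library. The dacapo gene itself stood at 85.8 and 83.4 RPKM in dap embryos, 81.0 and 75.7 RPKM in dapCRL4 embryos, 70.7 and 73.3 RPKM in dapPCNA embryos, 170.2 and 156.2 RPKM in dapCDI embryos, against 70.5 and 70.7 RPKM in control embryos. It was called higher in dap and dapCDI embryos and not in dapCRL4 or dapPCNA embryos, so for these 2 genotypes the RNA of the gene is no check of the label. Defining markers of neurons (elav, Syt1, brp), glia (repo), neuroblasts (dpn, wor, ase) and muscle (Mhc) were all present. Of 8 neuronal markers tested, 2 were called lower in dap (futsch and ple) and 1 in dapCDI (elav). These shares, 25% and 12.5%, stood against 11.8% and 7.56% of all genes tested. In either direction, 8 of the 8 in dap and 7 in dapCDI had an unadjusted p under 0.05 in limma. Of the 10396 genes tested, 3411 and 3244 did. The median log2 differences of the 8 were −0.47 in dap and −0.71 in dapCDI. Syb went the other way, at 0.17 in dap and 0.18 in dapCDI, and was not called. At 347 to 410 RPKM it stood far above the other markers on this list, and its restriction to neurons was not tested. Each of the other tested markers lay below control in dap and in dapCDI. In both genotypes the libraries differed, with elav at 43.3 and 28.7 RPKM in dap embryos, 42.1 and 35.7 in dapCRL4 embryos, 38.9 and 33.9 in dapPCNA embryos, 22.7 and 33.4 in dapCDI embryos, against 50.8 and 47.0 in control embryos; the part of neural RNA content in the results below was not tested. Of 8 muscle markers, Mhc was called lower in dap at −0.31 (adjusted p = 0.0360), and Mlc1 and Mlc2 were called higher in dapCDI at 0.39 (adjusted p = 0.0473) and 0.39 (adjusted p = 0.0492). These calls were 12.5% and 25% of the 8, against 11.8% and 7.56% of all genes tested. In dapCDI 6 of the 8 had an unadjusted p under 0.05, against 3244 of the 10396 genes tested. Adh, the 1 fat body marker high enough to test, was called higher in dap at 0.54 (adjusted p = 0.0171) and in dapCDI at 0.73 (adjusted p = 0.00521), and PH4alphaSG2, of the salivary gland, was called lower in all 4 forms.

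Of the 86 members, 48 shared exon sequence with a coding gene on the opposite strand, 9 only with a coding gene on the same strand, and 29 with none. RefSeq classed 44 as antisense RNA and 41 as lncRNA, and 1, CR43051, is now annotated as the coding gene CG43051. They were short: the median exon length was 966.5 bases, from 252 to 8398, against 2007.5 bases over all genes tested, and 39 members had a single block of exons. Chromosome arm 3R held 25 members, 2L 22, 3L 15, X 10, 2R 8 and chromosome 4 held 6. Whether the authors counted reads by strand is not given in the sources used here, so for the 57 members that share exons with a coding gene the reads of the pair cannot be told apart.

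Member levels spanned 5.30 to 749 RPKM, with a median of 14.3 RPKM, and 10 members reached 100 RPKM while 29 stayed below 10 RPKM. CR44095 was the most abundant. It is an antisense RNA (chromosome 3R, 14568962 to 14569871, plus strand, on the BDGP6 build as all positions here) that overlaps Cys, a cystatin-like protease inhibitor gene. Its level was 757 and 796 RPKM in dap embryos, 739 and 807 in dapCRL4 embryos, 792 and 762 in dapPCNA embryos, 823 and 722 in dapCDI embryos, against 613 and 679 in control embryos. Every dacapo library lay above both control libraries, but no comparison passed the test, with log2 differences of 0.26 to 0.27 and an adjusted p of at least 0.0629 in limma. Cys itself was at 1854 and 1976 RPKM in dap embryos, 1706 and 1842 in dapCRL4 embryos, 1847 and 1861 in dapPCNA embryos, 2042 and 1785 in dapCDI embryos, against 1441 and 1466 in control embryos, also with every dacapo library above both controls, and was called higher in dap at 0.40 (adjusted p = 0.0194) and in dapCDI at 0.39 (adjusted p = 0.0284).

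**Figure D1:**
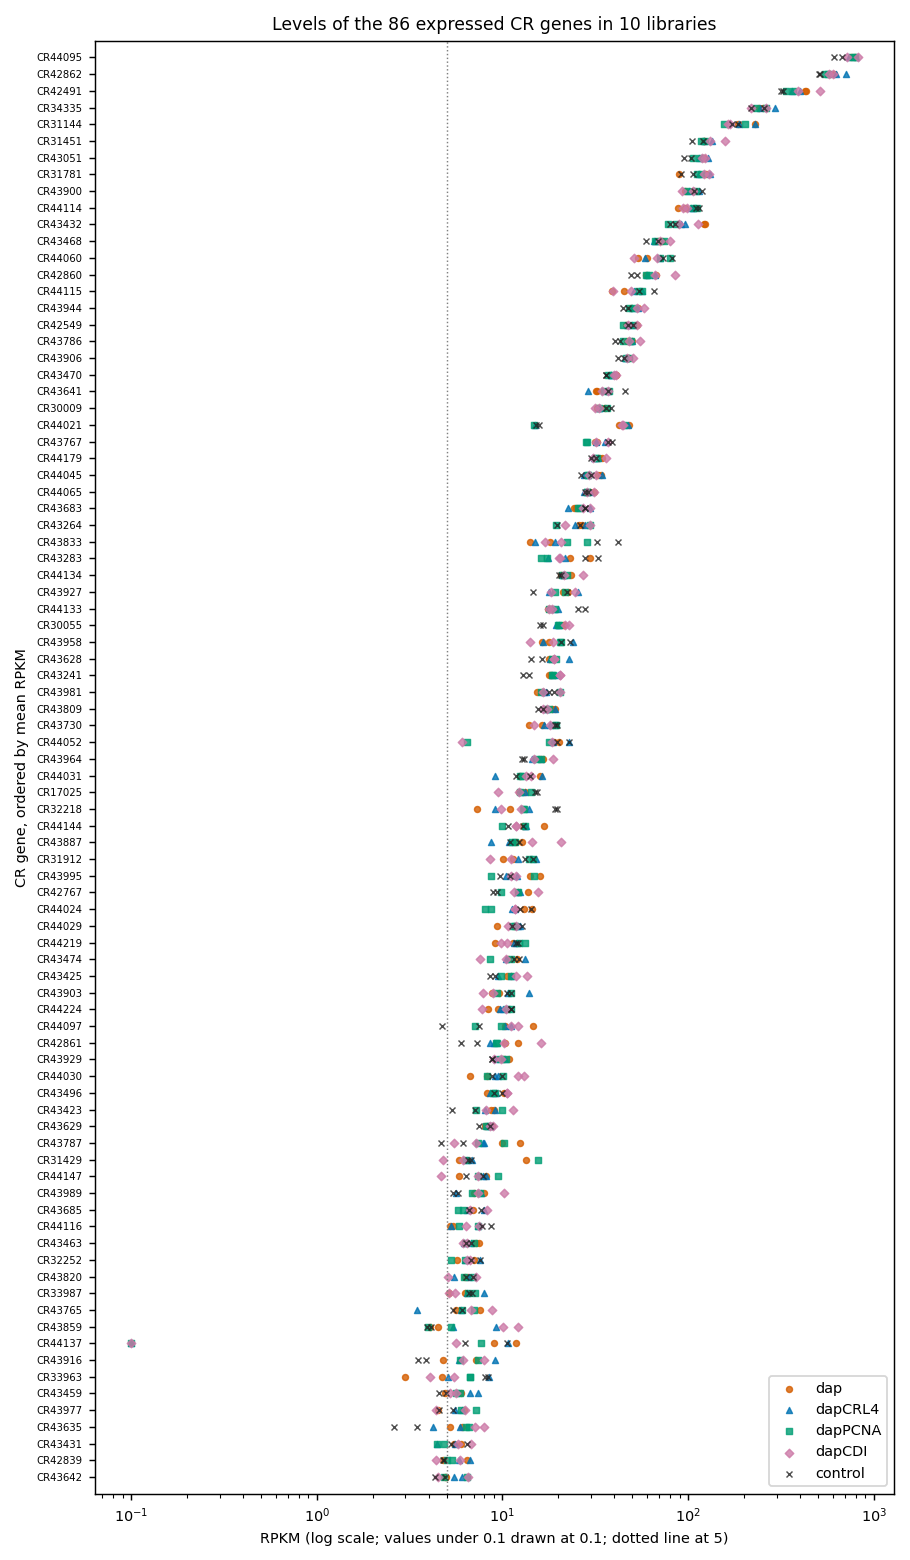
RPKM of each of the 86 CR genes (rows, ordered by mean) in each of the 10 libraries, on a log axis; colours and symbols mark the genotype and the dotted line marks 5 RPKM. Means run from 5.30 to 749 RPKM, and most rows are narrow, while CR44021, CR44052, CR31429 and CR44137 are split within genotypes.

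The next most abundant members were CR42862 at a mean of 584 RPKM, CR42491 at 387 RPKM, CR34335 at 248 RPKM, CR31144 at 188 RPKM and CR31451 at 125 RPKM. CR34335, also known as MRE16, lies within the span of CG32791 on the same strand without sharing exons, and CR31451 is now called mimi. CR31144 is antisense to RpL3, a ribosomal protein gene, over 73.7% of its exon bases, and was present at 0.0313 of the level of RpL3. Neither CR34335 nor CR31144 nor CR31451 was called in any comparison. Small RNA genes lay inside some members: CR42491 held snoRNA:Psi18S-531, CR43051 held snoRNA:CG43051-a, CR31451 held mir-9381, CR17025 held mir-252, and CR43459 held mir-277 together with mir-34. The last 2 were lower, at a mean of 13.01 RPKM for CR17025 and 5.68 RPKM for CR43459. CR43423, at a mean of 8.40 RPKM, lies wholly antisense to CR43334, the primary transcript of the bantam microRNA, which was listed at 0.69 to 0.85 RPKM.

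Across the 57 members that overlap a coding gene, 40 were less abundant than their main coding partner, and the median ratio of member to partner was 0.512. The partners CG5112, CG9257 and CG9804 were listed at 0 in every library. Their pairs have no usable ratio and are counted as not below the partner. Antisense members stood at a median ratio of 0.584, with 32 of 47 below the partner, and same-strand members at 0.362, with 8 of 10 below. CR44097 overlaps coding genes on both strands, and its main partner, CG6000, is on the same strand. The overlap covered a median of 74.2% of the exon bases of a member.

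**Figure D2:**
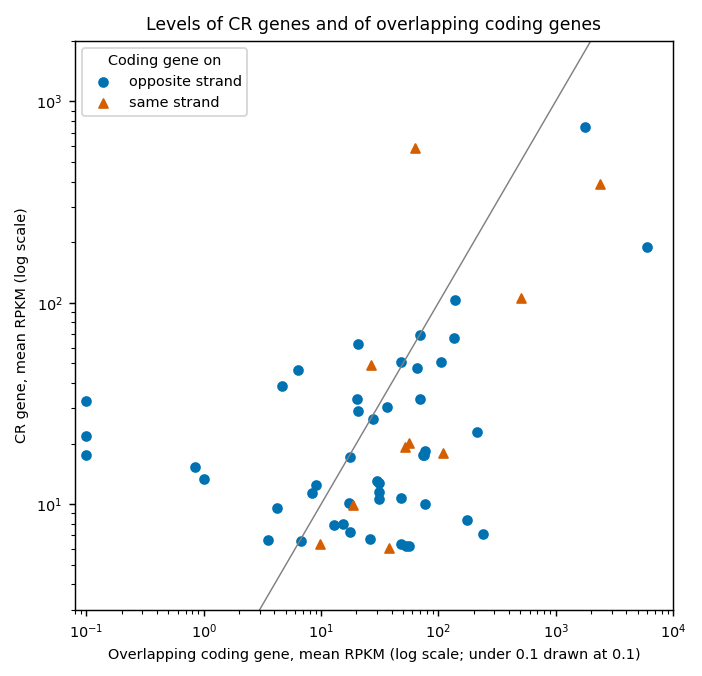
Mean RPKM over 10 libraries of each CR gene that shares exons with a coding gene (vertical) against that of its main coding partner (horizontal), both on log axes; the line marks equal levels and the symbols the relative strand. Of the 57 points, 40 lie below the line, and the partners drawn at the left edge averaged under 0.1 RPKM.

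The main question of the study, what each form of dacapo does to the transcriptome, was asked of the members in 4 comparisons with control, fitted in limma over the 10396 genes that reached 1 RPKM in 2 libraries or more. A member is called when its Benjamini-Hochberg adjusted p is under 0.05. In dap embryos 16 of the 86 members were called (18.6%), 9 higher and 7 lower, against 11.8% of all genes tested. Of all genes 8.53% were called higher and 3.27% lower. In dapCDI embryos 13 were called (15.1%), 9 higher and 4 lower, against 7.56% of all genes, of which 4.73% were higher and 2.83% lower. In dapCRL4 embryos 4 members were called, 2 in each direction (4.65%), against 1.45% of all genes, with 1.03% higher and 0.423% lower. In dapPCNA embryos 5 were called, 2 higher and 3 lower (5.81%), against 1.3% of all genes, with 0.741% higher and 0.558% lower. The members called higher include CR43635 in dap, dapCDI and dapPCNA and CR43859 in dapCDI, which the rule favoured as said above.

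The rule selects genes of at least 5 RPKM, and among all 8143 tested genes above that mean the called share was 13.8% for dap, 8.68% for dapCDI, 1.47% for dapCRL4 and 1.3% for dapPCNA. The 4 comparisons share the 2 control libraries. In all, 23 members were called in at least 1 of them, against 15.4% of all genes tested and 17.9% of those above 5 RPKM. CR43241 and CR44133, 2 of the 86, were called in all 4, against 0.616% of all genes and 0.639% of those above 5 RPKM. None of the 38 calls held when each library was left out in turn. In each of the 4 comparisons fewer members were called without control 1 or without control 2 than with all 10 libraries. In dapCDI more were called without dapCDI 2. Each such omission left 1 library in a genotype, which weakens the test for every gene. The share called over all genes in these fits is not given, so no instability particular to the CR genes can be read from them.

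The median log2 difference over the members was 0.11 for dap embryos, 0.08 for dapCRL4, 0.05 for dapPCNA and 0.10 for dapCDI. Over all genes tested it was 0.06, 0.04, 0.00 and 0.04 in the same order. Over all genes, differences depended on exon length. Among the shortest 25% of genes (up to 1196 bases) the median was 0.25 for dap, 0.12 for dapCRL4, 0.06 for dapPCNA and 0.22 for dapCDI; among the longest 25% it was −0.18, −0.04, −0.05 and −0.19. After this trend was subtracted (length correction), the members' medians were −0.09, 0.00, 0.02 and −0.07. The sign thus turned in dap and dapCDI, while the dapCRL4 median fell to near 0. The split of calls in dap then changed to 2 higher and 8 lower, while 344 of the 10396 genes tested were called. With quantile normalization or median centring it was 1 higher and 3 lower in dapCRL4, and with median centring 12 higher and 3 lower in dapCDI. The cause of the length trend was not tested.

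**Figure D3:**
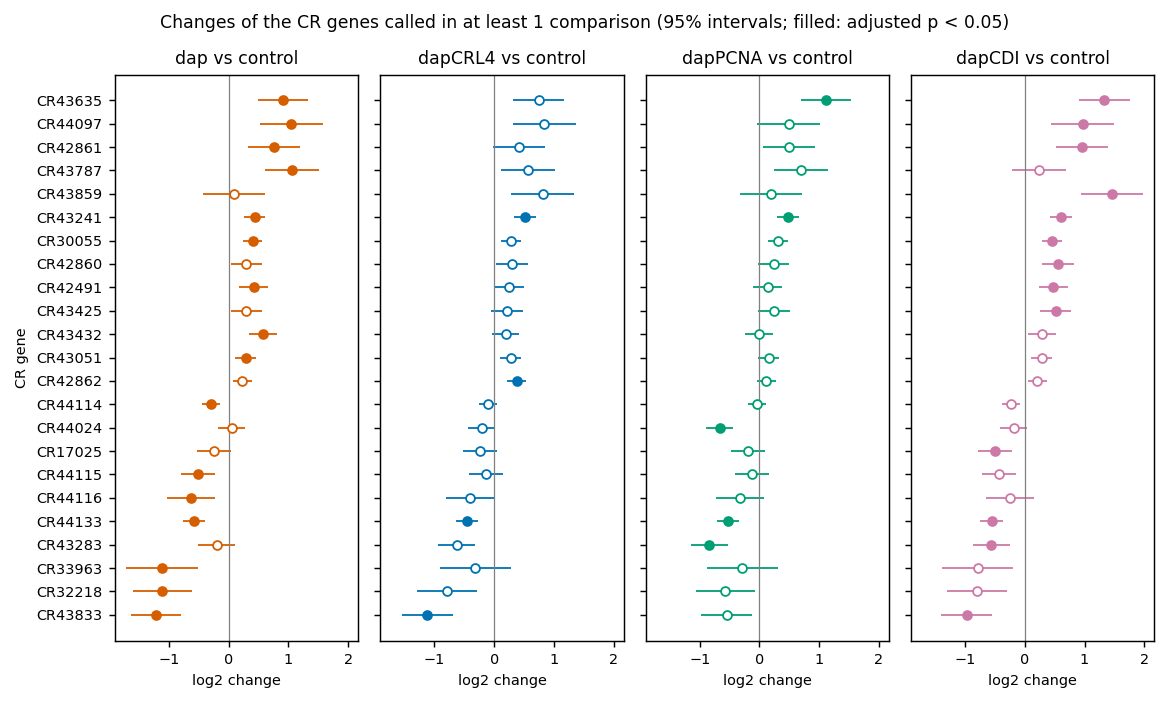
Log2 difference from control for the 23 CR genes called in at least 1 comparison, in 4 panels by genotype (n = 2 libraries per genotype); bars are 95% intervals from the limma fit and filled points have an adjusted p under 0.05. CR43241 is filled to the right of 0 and CR44133 to the left of 0 in every panel, while CR44024 is filled only in dapPCNA.

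Members without coding exon overlap carried 6 of the 16 calls in dap, 5 of 13 in dapCDI, 3 of 5 in dapPCNA and 0 of 4 in dapCRL4. Of these 29 members, 20.7%, 17.2%, 10.3% and 0% were thus called, against 11.8%, 7.56%, 1.3% and 1.45% of all genes tested in the same order. The calls include CR43635 in dap, dapCDI and dapPCNA and CR43859 in dapCDI. Both entered the set through their dacapo libraries, so the rule favoured these calls and the shares are in part set by it. In dapCRL4, 10 of the 29 had an unadjusted p under 0.05 in limma, against 1669 of the 10396 genes tested. Best known among the 29 is CR43283, now named cherub, an RNA segregated into one daughter at the asymmetric division of fly neuroblasts (chromosome 3R, 11247631 to 11256123, minus strand). It was the longest member, with 8398 exon bases, and the next coding gene on one side is pros, 72356 bases away. Cherub stood at 29.6 and 23.0 RPKM in dap embryos, 21.7 and 17.5 in dapCRL4 embryos, 16.2 and 17.5 in dapPCNA embryos, 20.5 and 20.3 in dapCDI embryos, against 32.5 and 27.9 in control embryos. Both libraries of dapCRL4, dapPCNA and dapCDI lay below both control libraries, and dap overlapped them. The log2 difference was −0.84 (95% interval −1.15 to −0.53, adjusted p = 0.0183) in dapPCNA and −0.56 (95% interval −0.87 to −0.25, adjusted p = 0.0473) in dapCDI. It was −0.63 (95% interval −0.94 to −0.32, adjusted p = 0.0690) in dapCRL4 and −0.21 (95% interval −0.52 to 0.11, adjusted p = 0.331) in dap, neither of which passed the test. In bulk embryos, fewer cells of a type and less RNA per cell cannot be told apart. The dapPCNA call was lost without dapPCNA 1, dapPCNA 2, control 1 or control 2 (adjusted p up to 0.155). In dapCDI it was kept only without dap 1 or dap 2, and the other 8 single-library omissions gave an adjusted p up to 0.223; there it was also lost after length correction, at −0.26.

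Among 7 neuroblast and progenitor markers, 1 was called lower in dapCRL4, 1 in dapPCNA and 2 in dapCDI, and none in dap. The second one in dapCDI was pros itself, and the gene called in all 3 was nerfin-1, a zinc finger gene of neuroblasts and early neurons, at 30.3 and 24.7 RPKM in dap embryos, 20.04 and 17.8 in dapCRL4 embryos, 17.6 and 17.0 in dapPCNA embryos, 20.7 and 22.3 in dapCDI embryos, against 30.6 and 30.2 in control embryos. The called shares of these 7 were 14.3% in dapCRL4, 14.3% in dapPCNA and 28.6% in dapCDI, against 1.45%, 1.3% and 7.56% of all genes tested. Their median log2 differences were 0.11, 0.03 and −0.02, and −0.15 in dap. Uncalled, mira, wor and ase lay above control in dapCRL4 (0.34, 0.14, 0.19) and dapPCNA (0.29, 0.23, 0.19), while pros lay below (−0.31 and −0.38). Summed, these 7 markers gave 138 and 117 RPKM for dap, 137 and 133 for dapCRL4, 132 and 127 for dapPCNA, 117 and 122 for dapCDI, against 135 and 136 for control. The part of neuroblast number in the level of cherub was not tested. The neighbouring coding gene of cherub on the other side, CG5214, 768 bases away, was called higher in dapCDI at 0.32 (adjusted p = 0.0473), the opposite direction to cherub, and was not called in the other 3.

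CR43635 was the member with the lowest control level (chromosome 3R, 5045207 to 5045948, minus strand). With a control mean under 5 RPKM it entered the set through its dacapo libraries, so the rule favoured a higher level there. It lies 34175 bases from plh and 31830 bases from corto. Its level was 5.24 and 6.03 RPKM in dap embryos, 4.23 and 5.93 in dapCRL4 embryos, 6.37 and 6.57 in dapPCNA embryos, 7.91 and 7.15 in dapCDI embryos, against 2.59 and 3.45 in control embryos, so all 8 dacapo libraries lay above both controls. The difference was called in 3 genotypes, at 0.91 (95% interval 0.49 to 1.33, adjusted p = 0.0224) in dap, 1.11 (95% interval 0.69 to 1.54, adjusted p = 0.0204) in dapPCNA and 1.33 (95% interval 0.91 to 1.76, adjusted p = 0.00773) in dapCDI, and not in dapCRL4 at 0.75 (adjusted p = 0.0958). Its estimated reads ran from 46 to 98 a library. In dap the call was lost without dap 2, control 1 or control 2 (adjusted p up to 0.144), and it was lost after length correction (0.63). In dapPCNA it was lost without dapPCNA 1, dapPCNA 2 or control 1 (adjusted p up to 0.155), and in dapCDI it was lost without dapCDI 1 or control 1 (adjusted p up to 0.0652).

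CR43859 (chromosome 2L, 11205528 to 11206092, minus strand) was called higher in 1 genotype. Its control mean was also under 5 RPKM, and it entered the set through its dacapo libraries. It measured 4.09 and 4.48 RPKM in dap embryos, 5.43 and 9.20 in dapCRL4 embryos, 3.97 and 5.31 in dapPCNA embryos, 10.1 and 12.2 in dapCDI embryos, against 3.92 and 4.13 in control embryos. Both dapCDI libraries lay above all others, dapCRL4 above both controls, and dap and dapPCNA overlapped the controls. In dapCDI the difference was 1.46 (95% interval 0.94 to 1.99, adjusted p = 0.0128), a 2.75-fold higher level, and in the other 3 genotypes it was not called. The call was lost without dapCDI 1, control 1 or control 2 (adjusted p up to 0.0939). Estimated reads were few, 48 to 137 a library.

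CR44024 (chromosome 4, 427331 to 431769, plus strand) was called lower in 1 genotype. Its level was 14.5 and 13.1 RPKM in dap embryos, 11.7 and 11.3 in dapCRL4 embryos, 8.06 and 8.66 in dapPCNA embryos, 11.7 and 11.7 in dapCDI embryos, against 12.4 and 14.3 in control embryos. Both dapPCNA libraries lay below all others, and both libraries of dapCRL4 and of dapCDI also lay below both controls, while dap overlapped them. The difference in dapPCNA was −0.67 (95% interval −0.90 to −0.44, adjusted p = 0.0116). It was not called in dapCRL4 at −0.21 (adjusted p = 0.359), in dapCDI at −0.19 (adjusted p = 0.243) or in dap at 0.05 (adjusted p = 0.761). The call was lost without dapPCNA 1, dapPCNA 2 or control 2 (adjusted p up to 0.137).

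**Figure D4:**
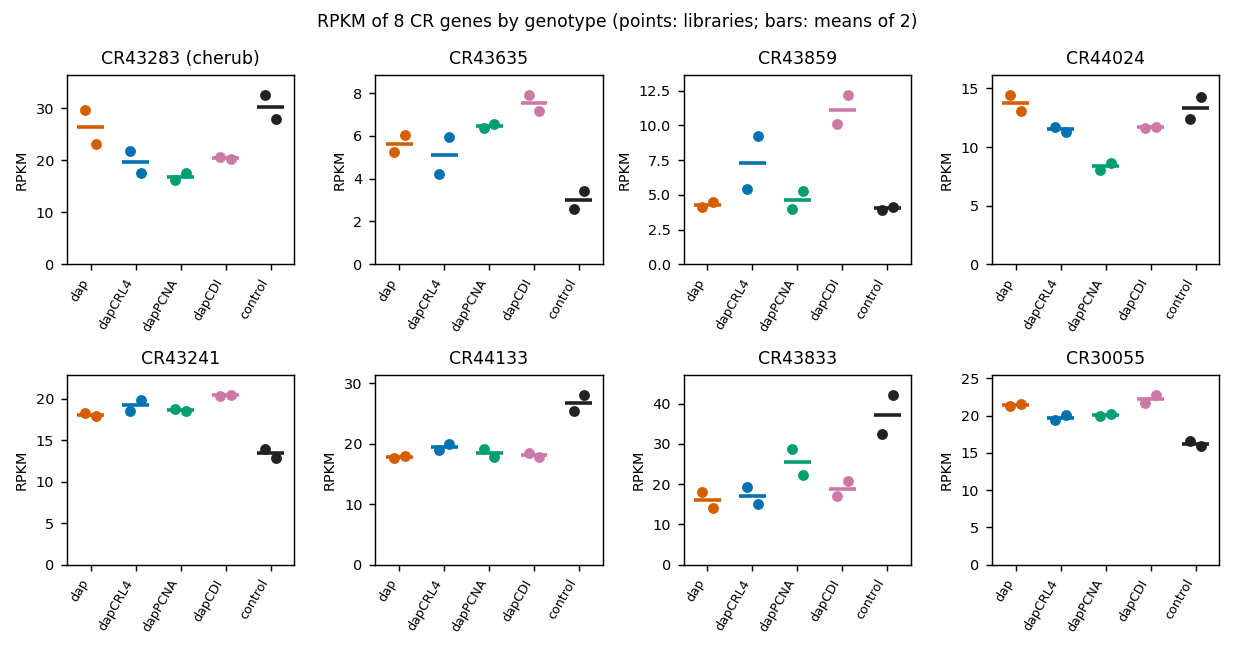
RPKM of 8 CR genes in each library (points) with the mean of 2 libraries (bars), by genotype. Control libraries are below all 8 dacapo libraries for CR43635, CR43241 and CR30055 and above all 8 for CR44133 and CR43833, while CR43859 stands apart in dapCDI and CR44024 in dapPCNA.

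CR30055 varied little within genotypes, at 21.3 and 21.5 RPKM in dap embryos, 19.4 and 20.1 in dapCRL4 embryos, 19.97 and 20.3 in dapPCNA embryos, 21.7 and 22.8 in dapCDI embryos, against 16.6 and 16.0 in control embryos. All 8 dacapo libraries lay above both controls. The differences were 0.40 (95% interval 0.23 to 0.56, adjusted p = 0.0178) in dap and 0.45 (95% interval 0.28 to 0.61, adjusted p = 0.0151) in dapCDI, and those in dapCRL4 (0.28) and dapPCNA (0.31) were not called. The dap call was lost without dap 2, control 1 or control 2 (adjusted p up to 0.121) and after length correction, and the dapCDI call was lost without control 1 or control 2 (adjusted p up to 0.110). CR32218 lies within the spans of Mi-2 and Su[Tpl] on the same strand without sharing exons. It went the other way, with 11.1 and 7.27 RPKM in dap embryos, 13.9 and 9.14 in dapCRL4 embryos, 13.2 and 12.95 in dapPCNA embryos, 9.87 and 12.6 in dapCDI embryos, against 19.7 and 19.1 in control embryos. Every dacapo library lay below both controls, and dap was called at −1.11 (95% interval −1.61 to −0.61, adjusted p = 0.0205), while dapCDI at −0.80 (adjusted p = 0.0562) was not. The dap call was lost without dap 2, control 1 or control 2 (adjusted p up to 0.139). Su[Tpl] was also called lower in dap, at −0.64 (adjusted p = 0.0144).

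CR42861 lies on the X chromosome between Grip91, 244 bases away, and Pdcd4, 100 bases away. Its level was 10.3 and 12.1 RPKM in dap embryos, 8.98 and 8.62 in dapCRL4 embryos, 9.40 and 9.27 in dapPCNA embryos, 16.2 and 10.1 in dapCDI embryos, against 7.31 and 5.99 in control embryos, above both controls in all 8 dacapo libraries. It was called in dap at 0.75 (95% interval 0.32 to 1.19, adjusted p = 0.0393) and in dapCDI at 0.95 (95% interval 0.52 to 1.39, adjusted p = 0.0310). In dap the call was kept only without dapCDI 1 or dapCDI 2, and the other 8 single-library omissions gave an adjusted p up to 0.214; it was also lost after length correction. In dapCDI it was kept only without dap 1, dap 2, dapCRL4 2 or dapCDI 2, and the other 6 single-library omissions gave an adjusted p up to 0.146.

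CR43432, now named marge, and CR43051 were called only in dap. Marge was at 121 and 123 RPKM in dap embryos, 91.5 and 96.5 in dapCRL4 embryos, 86.4 and 77.8 in dapPCNA embryos, 88.8 and 113 in dapCDI embryos, against 80.2 and 84.5 in control embryos. Its dap libraries lay above all others, at a log2 difference of 0.57 (95% interval 0.34 to 0.80, adjusted p = 0.0171); this was lost without dap 2, control 1 or control 2 (adjusted p up to 0.115) and after length correction. CR43051, the snoRNA host, was at 121 and 122 RPKM in dap embryos, 114 and 128 in dapCRL4 embryos, 106 and 116 in dapPCNA embryos, 124 and 119 in dapCDI embryos, against 104 and 95.5 in control embryos. All 8 dacapo libraries of CR43051 lay above both controls. The difference of CR43051 in dap was 0.29 (95% interval 0.11 to 0.46, adjusted p = 0.0474) and turned to −0.02 after length correction. By single libraries this call was kept only without dapCDI 1 or dapCDI 2, and the other 8 single-library omissions gave an adjusted p up to 0.237. The F test over the 4 forms, given below, called neither gene.

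Members sharing exons with a coding gene on the same strand numbered 9, with 4 called for dap, 3 for dapCRL4, 2 for dapPCNA and 3 for dapCDI. These shares, 44.4%, 33.3%, 22.2% and 33.3% of a set of only 9, stood against 11.8%, 1.45%, 1.3% and 7.56% of all genes tested. They include both members called in all 4 comparisons. CR43241 (chromosome 2L, 22131221 to 22132435, plus strand) shares 42.4% of its exon bases with CG42748. Its level was 18.3 and 17.9 RPKM in dap embryos, 18.5 and 19.9 in dapCRL4 embryos, 18.8 and 18.5 in dapPCNA embryos, 20.4 and 20.4 in dapCDI embryos, against 13.9 and 12.9 in control embryos. The libraries of each genotype were close to each other and all 8 dacapo libraries lay above both controls. The difference was 0.43 (95% interval 0.25 to 0.61, adjusted p = 0.0180) in dap, 0.52 (95% interval 0.34 to 0.70, adjusted p = 0.0131) in dapCRL4, 0.48 (95% interval 0.30 to 0.66, adjusted p = 0.0202) in dapPCNA and 0.61 (95% interval 0.43 to 0.79, adjusted p = 0.00503) in dapCDI. CG42748 was not called higher in any of them, and in dap it was called lower at −0.46 (adjusted p = 0.0347).

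The CR43241 call in dap was lost without dap 2, control 1 or control 2 (adjusted p up to 0.128). In dapCRL4 it was lost without dapCRL4 1, dapCRL4 2, control 1 or control 2 (adjusted p up to 0.155). The dapPCNA call was lost without dapPCNA 1, dapPCNA 2, control 1 or control 2 (adjusted p up to 0.182), and the dapCDI call was lost without control 2 (adjusted p = 0.0519). Length correction ended the call in dap, at 0.20, and kept the other 3.

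CR44133 (chromosome 3R, 15986181 to 15993665, plus strand) shares 81.4% of its exon bases with srp, which encodes a GATA factor of hemocytes, fat body and endoderm. It measured 17.6 and 18.0 RPKM in dap embryos, 19.0 and 20.00 in dapCRL4 embryos, 19.1 and 17.8 in dapPCNA embryos, 18.5 and 17.8 in dapCDI embryos, against 25.4 and 28.0 in control embryos, so both controls lay above all 8 dacapo libraries. The difference was −0.59 (95% interval −0.77 to −0.40, adjusted p = 0.00655) in dap, −0.45 (95% interval −0.64 to −0.27, adjusted p = 0.0309) in dapCRL4, −0.53 (95% interval −0.72 to −0.34, adjusted p = 0.0139) in dapPCNA and −0.56 (95% interval −0.74 to −0.37, adjusted p = 0.00928) in dapCDI. srp was at 47.4 and 45.3 RPKM in dap embryos, 58.2 and 59.7 in dapCRL4 embryos, 62.9 and 53.1 in dapPCNA embryos, 54.9 and 56.9 in dapCDI embryos, against 60.1 and 66.0 in control embryos, and was called lower in dap at −0.44 (adjusted p = 0.0205), but not in the other 3. The other hemocyte marker tested, Pxn, was likewise called lower in dap alone, and Hml was near 0, at 0.0393 to 0.111 RPKM. The part of hemocyte RNA in the level of CR44133 was not tested. A single-library omission ended each call: in dap it was lost without dap 2 or control 2 (adjusted p up to 0.0789), in dapPCNA lost without dapPCNA 1, dapPCNA 2 or control 2 (adjusted p up to 0.158) and in dapCDI lost without control 2 (adjusted p = 0.0898). In dapCRL4 it was kept only without dapCDI 1 or dapCDI 2, and the other 8 single-library omissions gave an adjusted p up to 0.252.

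Of the remaining same-strand members, CR42491 shares 50.5% of its exon bases with RpL22, a ribosomal protein gene. Its level was 426 and 429.6 RPKM in dap embryos, 362 and 403 in dapCRL4 embryos, 337 and 369 in dapPCNA embryos, 511 and 393 in dapCDI embryos, against 318 and 324 in control embryos. The dacapo libraries all lay above both controls, and the difference was 0.41 (95% interval 0.17 to 0.66, adjusted p = 0.0437) in dap and 0.48 (95% interval 0.23 to 0.73, adjusted p = 0.0430) in dapCDI. RpL22 was not called in either (0.13 in dap, 0.10 in dapCDI). The dap call was kept only without dapCDI 1 or dapCDI 2, and the other 8 single-library omissions gave an adjusted p up to 0.188. The dapCDI call was kept only without dapCDI 2, and the other 9 single-library omissions gave an adjusted p up to 0.180. Length correction ended both.

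CR42862, the second most abundant member, shares 4.5% of its exon bases with CG33229. It was at 614 and 582 RPKM in dap embryos, 625 and 706 in dapCRL4 embryos, 564 and 544 in dapPCNA embryos, 576 and 605 in dapCDI embryos, against 507 and 515 in control embryos. All 8 dacapo libraries lay above both controls, and only dapCRL4 was called, at 0.38 (95% interval 0.22 to 0.54, adjusted p = 0.0344). The call was lost without dapCRL4 2, dapPCNA 1, dapPCNA 2, control 1 or control 2 (adjusted p up to 0.294). Of 9 other settings only 3 kept it, log2(RPKM + 1), a filter at a mean of 5 RPKM and length correction; among those that lost it were quantile normalization (adjusted p = 0.0588) and median centring (adjusted p = 0.0664), and the log2 difference stayed between 0.29 and 0.47 over all settings and omissions. After length correction it was called in dap (0.41), dapCRL4 (0.42) and dapCDI (0.41).

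CR33963 shares 15.9% of its exon bases with Tis11, the gene of a zinc finger protein that promotes mRNA decay. CR33963 stood at 4.73 and 2.98 RPKM in dap embryos, 8.50 and 5.08 in dapCRL4 embryos, 6.66 and 6.72 in dapPCNA embryos, 4.06 and 5.50 in dapCDI embryos, against 8.02 and 8.32 in control embryos, lowest in dap. Tis11 stood at 30.6 and 19.9 RPKM in dap embryos, 41.1 and 35.7 in dapCRL4 embryos, 47.4 and 45.1 in dapPCNA embryos, 28.4 and 33.9 in dapCDI embryos, against 47.6 and 46.8 in control embryos. Both were called lower in dap, at −1.12 (95% interval −1.72 to −0.52, adjusted p = 0.0315) for CR33963 and −0.93 (adjusted p = 0.0171) for Tis11. The CR33963 call was lost without dap 2, control 1 or control 2 (adjusted p up to 0.199), and it was lost after length correction (adjusted p = 0.0503).

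Antisense members numbered 48, with 6 called for dap, 1 for dapCRL4, 0 for dapPCNA and 5 for dapCDI. The shares of 12.5% in dap, 2.08% in dapCRL4 and 10.4% in dapCDI stood against 11.8%, 1.45% and 7.56% of all genes tested, and those in dap and dapCRL4 were near that background. In dapPCNA, 7 of the 48 had an unadjusted p under 0.05 in limma, against 1179 of the 10396 genes tested. CR43833 (chromosome X, 13755322 to 13756013, plus strand) showed the lowest log2 differences among the calls in dap, dapCRL4 and dapCDI. It is antisense to Pdcd4 over 27.2% of its exon bases; Pdcd4 is the fly homologue of a mammalian inhibitor of translation. CR43833 was at 18.0 and 14.0 RPKM in dap embryos, 19.3 and 15.0 in dapCRL4 embryos, 28.7 and 22.3 in dapPCNA embryos, 17.0 and 20.7 in dapCDI embryos, against 32.5 and 42.1 in control embryos, so both controls lay above all 8 dacapo libraries. The difference was −1.22 (95% interval −1.64 to −0.79, adjusted p = 0.0101) in dap, −1.12 (95% interval −1.54 to −0.69, adjusted p = 0.0196) in dapCRL4 and −0.98 (95% interval −1.40 to −0.55, adjusted p = 0.0265) in dapCDI. In dapPCNA it was −0.55 (adjusted p = 0.280) and not called.

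Pdcd4 was at 172 and 146 RPKM in dap embryos, 198 and 172 in dapCRL4 embryos, 241 and 213 in dapPCNA embryos, 189 and 214 in dapCDI embryos, against 266 and 310.4 in control embryos. It was called in the same 3 genotypes, with log2 differences of −0.86 in dap, −0.64 in dapCRL4 and −0.51 in dapCDI, and not in dapPCNA. CR42861, at the other end of Pdcd4, was called higher in dap and dapCDI. The dap call of CR43833 was lost without dap 2 or control 2 (adjusted p up to 0.101). In dapCRL4 it was lost without dapCRL4 2 or control 2 (adjusted p up to 0.181), and in dapCDI lost without dapCDI 1, control 1 or control 2 (adjusted p up to 0.152). In dapCRL4 it also just missed the test after length correction (adjusted p = 0.050005), at a log2 difference of −1.27, and over all settings and omissions that difference stayed between −1.31 and −0.93.

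CR43787 is antisense to Cyp9c1, a cytochrome P450 gene, over 87.7% of its exon bases. It was at 10.003 and 12.4 RPKM in dap embryos, 7.97 and 7.90 in dapCRL4 embryos, 7.34 and 10.2 in dapPCNA embryos, 7.25 and 5.51 in dapCDI embryos, against 6.12 and 4.65 in control embryos, and both dap libraries lay above both controls. Cyp9c1 was at 24.9 and 21.95 RPKM in dap embryos, 14.8 and 16.2 in dapCRL4 embryos, 16.1 and 15.4 in dapPCNA embryos, 14.5 and 14.7 in dapCDI embryos, against 8.63 and 7.90 in control embryos, with all 8 dacapo libraries above both controls. In dap both were called higher, at 1.06 (95% interval 0.61 to 1.52, adjusted p = 0.0191) for CR43787 and 1.50 (adjusted p = 4.95e-05) for Cyp9c1. Cyp9c1 was called in the other 3 genotypes too, CR43787 in none of them. The CR43787 call was lost without dap 2 or control 2 (adjusted p up to 0.133).

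CR44097 overlaps Hsp68 on the opposite strand by 2.3% of its exon bases and lies wholly within exons of CG6000 on its own strand. It measured 10.3 and 14.6 RPKM in dap embryos, 10.3 and 11.1 in dapCRL4 embryos, 7.08 and 9.85 in dapPCNA embryos, 12.2 and 11.2 in dapCDI embryos, against 7.49 and 4.75 in control embryos. It was called higher in dap at 1.04 (95% interval 0.52 to 1.57, adjusted p = 0.0277) and in dapCDI at 0.97 (95% interval 0.44 to 1.50, adjusted p = 0.0457), where all dap and dapCDI libraries lay above both controls. CG6000 was called higher in dap at 0.65 (adjusted p = 0.0197) and not in dapCDI (0.41). The dap call of CR44097 was lost without dap 2 or control 2 (adjusted p up to 0.179). The dapCDI call was kept only without dap 1, dap 2 or dapCDI 2, and the other 7 single-library omissions gave an adjusted p up to 0.221. Both were lost after length correction.

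CR44114 and CR44115 lie near each other on chromosome 2L, antisense to l[2]s5379 and to gho, the gene of a Sec24 coat protein of secretory vesicles. CR44115 was at 44.9 and 39.0 RPKM in dap embryos, 56.8 and 51.4 in dapCRL4 embryos, 56.2 and 53.6 in dapPCNA embryos, 39.4 and 49.5 in dapCDI embryos, against 65.4 and 54.5 in control embryos. CR44114 was at 95.9 and 88.0 RPKM in dap embryos, 107 and 104 in dapCRL4 embryos, 112 and 106 in dapPCNA embryos, 94.3 and 98.3 in dapCDI embryos, against 115 and 110.0 in control embryos. The dap libraries lay below both controls for each gene, and dap was called at −0.51 (95% interval −0.80 to −0.23, adjusted p = 0.0358) for CR44115 and −0.29 (95% interval −0.45 to −0.14, adjusted p = 0.0291) for CR44114. Neither coding partner was called in dap. The CR44114 call was lost without dap 2, control 1 or control 2 (adjusted p up to 0.167), and that of CR44115 was kept only without dap 1, dapCRL4 2, dapCDI 1 or dapCDI 2, and the other 6 single-library omissions gave an adjusted p up to 0.208.

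CR44116, antisense to CG8475, was also called lower in dap, at −0.63 (95% interval −1.03 to −0.23, adjusted p = 0.0498). Its level was 5.22 and 5.41 RPKM in dap embryos, against 8.70 and 7.77 in control embryos, and the 2 dap libraries lay below both controls. The call was kept only without dapCRL4 1, dapCRL4 2, dapCDI 1 or dapCDI 2, and the other 6 single-library omissions gave an adjusted p up to 0.209, and it was lost after length correction. CG8475 was not called (−0.02).

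In dapCDI alone, 2 antisense members were called higher and 1 lower. CR42860, antisense to sls, the gene of the titin-like muscle protein Sallimus, was at 66.9 and 59.1 RPKM in dap embryos, 59.8 and 66.3 in dapCRL4 embryos, 59.0 and 61.7 in dapPCNA embryos, 85.3 and 66.3 in dapCDI embryos, against 49.3 and 53.3 in control embryos. CR43425, wholly antisense to unc-13, a gene of synaptic vesicle priming, was at 11.1 and 10.6 RPKM in dap embryos, 9.52 and 11.1 in dapCRL4 embryos, 9.82 and 11.1 in dapPCNA embryos, 13.6 and 11.9 in dapCDI embryos, against 8.58 and 9.11 in control embryos. For both, all 8 dacapo libraries lay above both controls, so the shift was not particular to dapCDI. Only dapCDI was called, at 0.55 (95% interval 0.29 to 0.82, adjusted p = 0.0343) for CR42860 and 0.52 (95% interval 0.26 to 0.78, adjusted p = 0.0394) for CR43425. Neither sls nor unc-13 was called in dapCDI. The 8 muscle markers summed to 16357 and 18425 RPKM for dap, 18361 and 20173 for dapCRL4, 19387 and 19983 for dapPCNA, 23484 and 20794 for dapCDI, against 16690.4 and 18801 RPKM for control; their part in the level of CR42860 was not tested. The CR42860 call was kept only without dap 1, dap 2 or dapCDI 2, and the other 7 single-library omissions gave an adjusted p up to 0.175. For CR43425 it was kept only without dap 1, dap 2 or dapCDI 2, and the other 7 single-library omissions gave an adjusted p up to 0.200. CR17025, the mir-252 host, was at 13.2 and 12.3 RPKM in dap embryos, 13.2 and 12.7 in dapCRL4 embryos, 14.2 and 12.5 in dapPCNA embryos, 9.43 and 12.3 in dapCDI embryos, against 15.1 and 15.3 in control embryos. All 8 dacapo libraries lay below both controls, and only dapCDI was called, at −0.49 (95% interval −0.78 to −0.21, adjusted p = 0.0490). This last call was kept only without dapCDI 2, and the other 9 single-library omissions gave an adjusted p up to 0.247, and it was lost after length correction, quantile normalization or median centring.

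Counting only the main coding partner of each member, on either strand, 10 of the members called in dap had one. This partner was called in the same direction for 5 of them: Cyp9c1, srp, CG6000, Tis11 and Pdcd4. In dapCDI this held for 1 of 8 and in dapCRL4 for 1 of 4, in both for Pdcd4, and in dapPCNA for 0 of 2. Among the 61 tested coding genes that overlap a member, 11 were called for dap, 3 for dapCDI, 2 for dapCRL4 and 1 for dapPCNA, with medians of −0.05, −0.03, 0.03 and 0.00. These shares, 18.0%, 4.92%, 3.28% and 1.64%, stood against 11.8%, 7.56%, 1.45% and 1.3% of all genes tested. The share in dapCDI was thus below the background and that in dapPCNA near it. Cyp9c1 was called in all 4, Pdcd4 in dapCRL4 and dapCDI as well as dap, and Cys in dapCDI and dap.

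Levels of the members spread more over the 10 libraries than those of other genes, with a median log2 range of 0.66 against 0.46 over all genes tested. The steadiest was CR44065, antisense to CG10874, whose highest library was 1.13 times its lowest (31.2 and 29.6 RPKM in dap embryos, 27.5 and 29.6 in dapCRL4 embryos, 28.5 and 28.7 in dapPCNA embryos, 31.1 and 28.7 in dapCDI embryos, against 27.7 and 28.8 in control embryos). CR43470 (1.14 times), CR43629 (1.18 times) and CR42549 (1.19 times) followed. At the other end, 4 members differed by over 1 log2 unit between the libraries of a genotype, 4.65% of members against 5.68% of all genes tested. All 4 are antisense. They are named after their values were seen, apart from CR44137, and none was called in any comparison.

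CR44021 is antisense to Pp1alpha-96A, the gene of a catalytic subunit of protein phosphatase 1, over 87.2% of its exon bases. It stood at 48.2 and 42.7 RPKM in dap embryos, 15.1 and 47.5 in dapCRL4 embryos, 45.4 and 14.9 in dapPCNA embryos, 44.8 and 44.0 in dapCDI embryos, against 15.7 and 15.1 in control embryos. The values fell near 15 or above 42 RPKM, with dapCRL4 and dapPCNA split between their libraries. The dap difference was 1.56 (95% interval 0.38 to 2.74, adjusted p = 0.0780), not called. Pp1alpha-96A was at 64.3 and 59.0 RPKM in dap embryos, 83.2 and 66.0 in dapCRL4 embryos, 65.6 and 78.7 in dapPCNA embryos, 63.6 and 65.9 in dapCDI embryos, against 79.4 and 74.1 in control embryos.

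CR31429 overlaps neur, which encodes a ubiquitin ligase of Delta endocytosis, over 88.4% of its exon bases. It was at 5.84 and 13.3 RPKM in dap embryos, 6.87 and 6.41 in dapCRL4 embryos, 6.33 and 15.5 in dapPCNA embryos, 4.80 and 6.10 in dapCDI embryos, against 6.54 and 6.77 in control embryos, high in dap 2 and dapPCNA 2. neur was low in those same 2 libraries, at 14.9 and 4.18 RPKM in dap embryos, 15.7 and 15.1 in dapCRL4 embryos, 15.0 and 5.62 in dapPCNA embryos, 11.5 and 14.4 in dapCDI embryos, against 15.6 and 16.1 in control embryos. CR44052, antisense to CG31414, was at 20.1 and 19.0 RPKM in dap embryos, 18.6 and 22.9 in dapCRL4 embryos, 17.8 and 6.45 in dapPCNA embryos, 6.07 and 18.4 in dapCDI embryos, against 19.7 and 23.0 in control embryos, low in dapPCNA 2 and dapCDI 1. CG31414 was highest in dapPCNA 2, at 22.00 RPKM, and 15.7 to 19.1 RPKM elsewhere. How reads of such overlapping pairs were divided is not given in the sources used here, and its part in these values was not tested.

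CR44137, antisense to Csk, the C-terminal Src kinase gene, was listed at 0 in dapCRL4 2 and in dapCDI 1 and at 0.0457 RPKM in dapPCNA 2. In the other libraries it was at 11.8 and 9.01 RPKM in the dap libraries, 10.7 RPKM in dapCRL4 1, 7.70 in dapPCNA 1 and 5.65 in dapCDI 2, against 6.27 and 10.6 RPKM in control. Csk ranged only over 45.01 to 61.2 RPKM, and was called lower in dap at −0.30 (adjusted p = 0.0492). No fold is given against a library listed at 0.

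**Figure D5:**
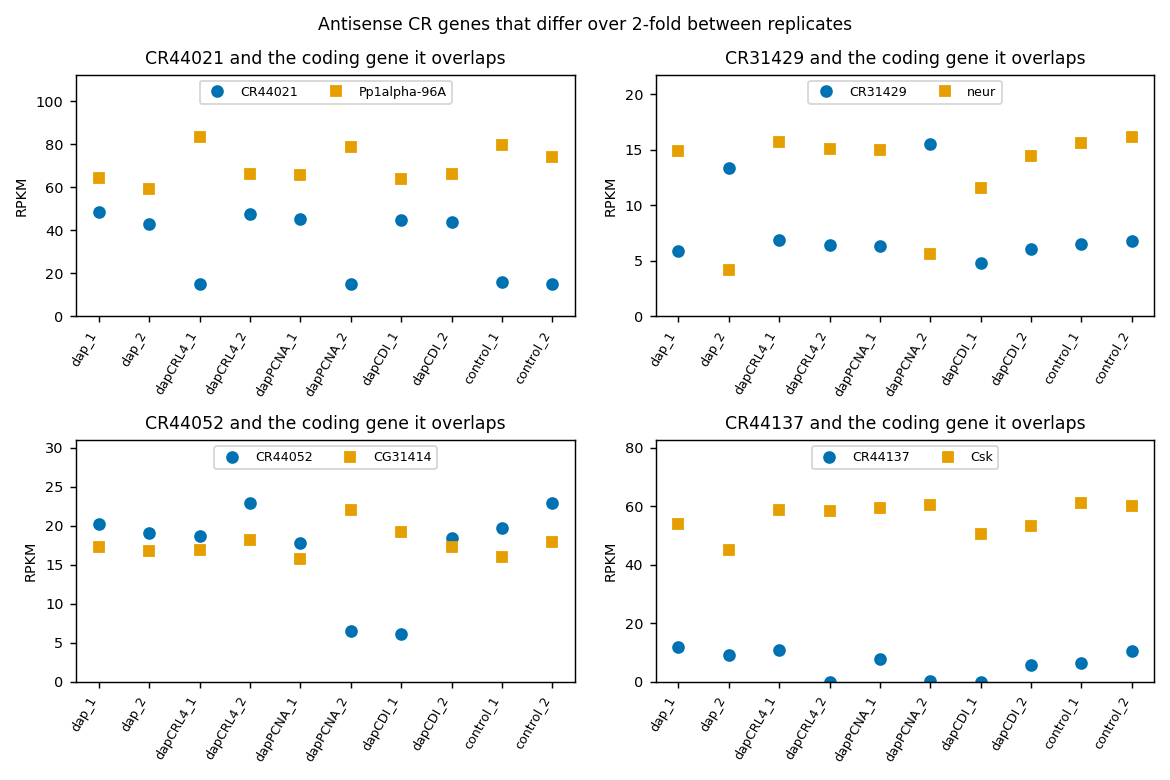
RPKM of 4 antisense CR genes (circles) and of the coding gene each overlaps (squares) in each of the 10 libraries. CR44021 is near 15 RPKM in dapCRL4 1, dapPCNA 2 and both controls and above 42 elsewhere; in dap 2 and dapPCNA 2 CR31429 is above neur, and CR44137 is at or near 0 in dapCRL4 2, dapPCNA 2 and dapCDI 1.

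Over the 5 genotypes together, limma's moderated F test called 8 members (9.30%), against 3.09% of all genes tested and 3.34% of those above 5 RPKM. They were CR30055, CR43241, CR43283, CR43635, CR43833, CR43859, CR44024 and CR44133. Of these, CR43635 and CR43859 had a control mean under 5 RPKM and entered the set through their dacapo libraries. Fewer members were called without control 1, control 2 or dap 1 and more without dapCDI 2. The share over all genes in those fits is not given. Among the 4 dacapo forms alone the F test called 0 of the 86, against 0.5% of all genes tested and 0.503% of those above 5 RPKM. An unadjusted p under 0.05 was found for 18 of the 86 and for 1873 of the 10396 genes tested, so the members were near the background. The lowest adjusted p values of the members named above were 0.0583 for CR44024 and 0.0757 for CR43859. A call in 1 form and not in another therefore does not show that the forms differ for that gene.

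The 500 CR genes below 5 RPKM were mostly too low to test. Of them 74 were listed at 0 in all 10 libraries and 111 were tested. In limma 2 were called in dap and 2 in dapCDI, 1.80% each, against 11.8% and 7.56% of all genes tested. In dapCRL4 and dapPCNA 0 were called, against 1.45% and 1.3%. An unadjusted p under 0.05 was found for 13 of the 111 in dapCRL4 and 14 in dapPCNA, against 1669 and 1179 of the 10396 genes tested. These shares were near or below the background. CR32205 was called higher in dap and dapCDI, CR44124 lower in dap and CR43872 lower in dapCDI, and all 3 are named after their values were seen. Among 18 tested noncoding RNAs with names of their own, 1 was called in dap and 1 in dapCDI, 5.56% each, against 11.8% and 7.56% of all genes tested. The gene in dap was noe, at 1.07 and 0.849 RPKM in dap embryos, against 2.07 and 1.76 in control embryos, a log2 difference of −1.002 (adjusted p = 0.0497). In dapCDI it was Uhg7, a snoRNA host gene, at 563 and 491 RPKM in dapCDI embryos, against 413 and 435 in control embryos, a log2 difference of 0.31 (adjusted p = 0.0490). roX1 and roX2 were not called in any comparison, with roX1 at 175 and 139 RPKM in dap embryos, 173 and 164 in dapCRL4 embryos, 166 and 188 in dapPCNA embryos, 169 and 158 in dapCDI embryos, against 137 and 151 in control embryos. Summed over the 86 members, the level was 4387 and 4280 RPKM for dap, 4194 and 4564 for dapCRL4, 4112 and 4184 for dapPCNA, 4479 and 4225 for dapCDI, against 3842 and 3972 RPKM for control. This made up 0.409% to 0.467% of the summed table, and 0.409% and 0.416% in the 2 control libraries.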

How the data were processed

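PolyA RNA was read as single reads of 50 bases on 1 lane, 20.7 to 43.4 megareads a sample, per the labels' protocols. The deposited values are log2 of total RPKM on the genome build BDGP6, per the submitters' processing notes; genes without reads carry −9.10916. Aligner, counting tool, annotation and strand setting: not given in the sources used here. Reads were estimated from whole-number ratios among low genes; of 395 member values of 3 to 300 such reads, 57.5% lay within 0.1 of a whole number, so no count test was run. Intervals and floors from such reads would cover counting error only, and none is given.

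Names were matched to Ensembl release 115 (BDGP6) and RefSeq; all 86 members matched. The log2 values were fitted in limma 3.58.1 (R 4.3.3) with 1 mean per genotype over 10 libraries, a mean-variance trend (prior df of 4.73) and Benjamini-Hochberg adjustment over the 10396 genes that reached 1 RPKM in 2 libraries or more; tests are two-sided. The fit was tested on simulated data. p-values measure the spread between independent samples of 1 genotype. Named members are the 6 highest by mean, up to 8 called per direction and comparison, those called by an F test, those listed at 0, and the 4 steadiest. The members and lists were chosen with earlier results of these data known. Same-numbered libraries did not deviate together. Promoter sequences were not analysed here.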

Additional observations from a re-analysis of the deposited data

Results flagged for a closer look

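No genotype had enough libraries for a check of single outlying values. In 4 members both libraries of one dacapo form lay above both controls while both libraries of another lay below them. These differences were not tested one by one; limma's F test over the 4 forms called none of them. CR31144, antisense to RpL3, differed from control by 0.21 on the log2 scale in dapCRL4 and by −0.10 in dapCDI (F test, adjusted p = 0.370). CR43887 differed by 0.58 in dapCDI and by −0.26 in dapCRL4 (F test, adjusted p = 0.135). CR44219 differed by 0.10 in dapPCNA, by −0.22 in dap and by −0.22 in dapCDI (F test, adjusted p = 0.273). CR44030, a gene of chromosome 4, differed by 0.43 in dapCDI and by −0.32 in dap (F test, adjusted p = 0.114).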

How the results depend on the processing

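Counts of called members depended on the settings. In dap, 16 were called. The count was 4 without the filter on low values, 4 without the mean-variance trend and 10 after length correction. Over all 10396 genes tested, calls in dap went from 1227 to 344 after length correction. In dapCDI, length correction gave 12 members and went from 786 to 335 genes. Counts over all genes under the other settings are not given here, so those member counts have no background beside them. In dapCDI, 13 were called; the count was 3 without the filter, 4 without the trend, 23 with a filter at a mean of 5 RPKM, 7 with the replicate block and 2 when only dapCDI and control were fitted. In dapCRL4, 4 were called, 1 without the trend and 0 when only the groups compared were fitted. In dapPCNA, 5 were called and 3 without the trend. The F test over 5 genotypes called 8, against 3 without the filter and 1 without the trend; it has no value when only 2 groups are fitted. The F test over the 4 forms called 0 members, against 1 on log2(RPKM + 1), which was CR44024, 2 with the filter at 5 RPKM, 1 with the replicate block and 2 after length correction. The cause of these changes was not tested. Leaving out 1 library at a time gave 0 to 25 calls for dap, 0 to 4 for dapCRL4, 0 to 6 for dapPCNA, 1 to 34 for dapCDI, 0 to 26 in the F test over 5 genotypes and 0 to 5 in the F test over the forms. Where this left 1 library in a genotype, its spread was assumed to be that of the others.

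Same-numbered libraries share only a number: the correlations of their deviations ran from −0.0535 to 0.0894 over the 10 pairs of genotypes, none above 0.1. Of the 38 single calls, 2 held under all 9 other settings, CR44133 in dap and in dapPCNA, and none held under all 10 omissions of a library. Fewest held for CR17025 in dapCDI (2 of 9) and for CR42862 in dapCRL4, CR43051 in dap and CR44097 in dapCDI (3 of 9 each). The only direction that turned was that of CR43051 in dap, with a log2 difference of −0.0189 after length correction (adjusted p = 0.906). Depth limits the weak members, 21 of which had fewer than 100 estimated reads in some library, and 2 libraries a genotype limit every interval.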
